A study of Mus musculus with 9 samples.

Results

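The comparison described here sets brain tissue taken 7 days after an injection of lipopolysaccharide (LPS) against tissue taken 1 day after an injection of phosphate-buffered saline (PBS). It rests on 6 of the 9 bulk RNA-seq libraries of the series, 3 from wild-type (WT) mice labelled LPS 7d and 3 from WT mice labelled PBS 1d, and on all 20731 genes on chromosomes 1 to 19 out of 21899 genes in the deposited table. The 3 remaining libraries, labelled LPS 1d, came from WT mice 1 day after LPS and are shown beside the others. The injections were intraperitoneal, and the dissected tissue was the paraventricular thalamus (PVT). Dose, strain, sex and age are not among the labels, and nothing in the labels shows that each library is a separate animal; the p-values therefore reflect variation among these libraries, which may be technical. The 9 libraries include no PBS group at 7 days. Day after injection and treatment both differ between the groups compared, as do levels of regional marker genes and Y-linked counts, described below. These differences cannot be told apart.

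The PVT is a midline nucleus of the thalamus whose neurons release glutamate and which is known for its part in wakefulness, stress and appetitive behaviour. LPS is a component of the outer membrane of Gram-negative bacteria. It is carried by the binding proteins LBP and CD14 to the receptor TLR4 on macrophages, endothelium and microglia, which turns on the NF-kB pathway and, through interferon regulatory factors, type I interferon. Interferon then acts through its receptor and factors that include STAT2 and IRF9 on a set of antiviral genes, while cytokines drive acute phase proteins and reactive changes in astrocytes. After a single systemic injection the cytokine phase is short, and glial changes are known to last longer.

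Library totals in the 6 libraries ran from 14713049 to 17210526 counts, with 4.43 to 4.80% of counts from mitochondrial genes in PBS 1d and 4.67 to 5.09% in LPS 7d. Rank correlation across genes was 0.9965 to 0.9972 between libraries of a group and 0.9832 to 0.9846 between a PBS 1d and an LPS 7d library. The labelled tissue was checked against the summed level of 24 tested markers of the PVT and midline thalamus, in CPM (counts scaled to a common library size). The sum was 975 to 1022 CPM in PBS 1d, 769 to 800 CPM in LPS 1d and 921 to 957 CPM in LPS 7d. It includes Calb2 and Grin2c, which are also genes of cerebellar granule cells and were higher in LPS 7d. The sums of PBS 1d and LPS 7d therefore do not show a similar PVT content. Markers of striatum, cortex, hypothalamus and choroid plexus were present in all groups, and those of cerebellum and hindbrain in LPS 7d, which goes against a label of PVT alone. Y-linked genes, which lie outside the autosomal set, received 1, 0 and 0 counts in the 3 PBS 1d libraries against 1669, 1615 and 1536 in LPS 7d and 1060 to 1370 in LPS 1d. The labels do not mention this difference between the groups. Its part in the autosomal results was not tested.

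Levels are given in CPM from the deposited counts, with TMM scaling in edgeR. Of the 20731 autosomal genes, 14300 had enough counts to be tested. At an edgeR adjusted p under 0.05, which is what "called" means below, 5111 genes differed between LPS 7d and PBS 1d (35.7% of those tested). Of these, 2418 were higher at 7 days (16.9%) and 2693 were lower (18.8%). With library totals as the only scaling the split was 3086 higher and 2238 lower, so the balance of the directions depended on the scaling, while the median of all genes moved by 0.0395 on the log2 scale. Most differences were small. Of the called genes 73.86% differed by less than 1.5-fold, and the median size of the log2 difference was 0.34 among them. A difference of at least 2-fold was reached by 350 genes higher (2.45%) and 175 lower (1.22%) at 7 days. For 6340 genes (44.3%) no LPS 7d library overlapped any PBS 1d library. This share stands beside every statement below that groups did not overlap, which alone does not set a gene apart.

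**Figure D1:**
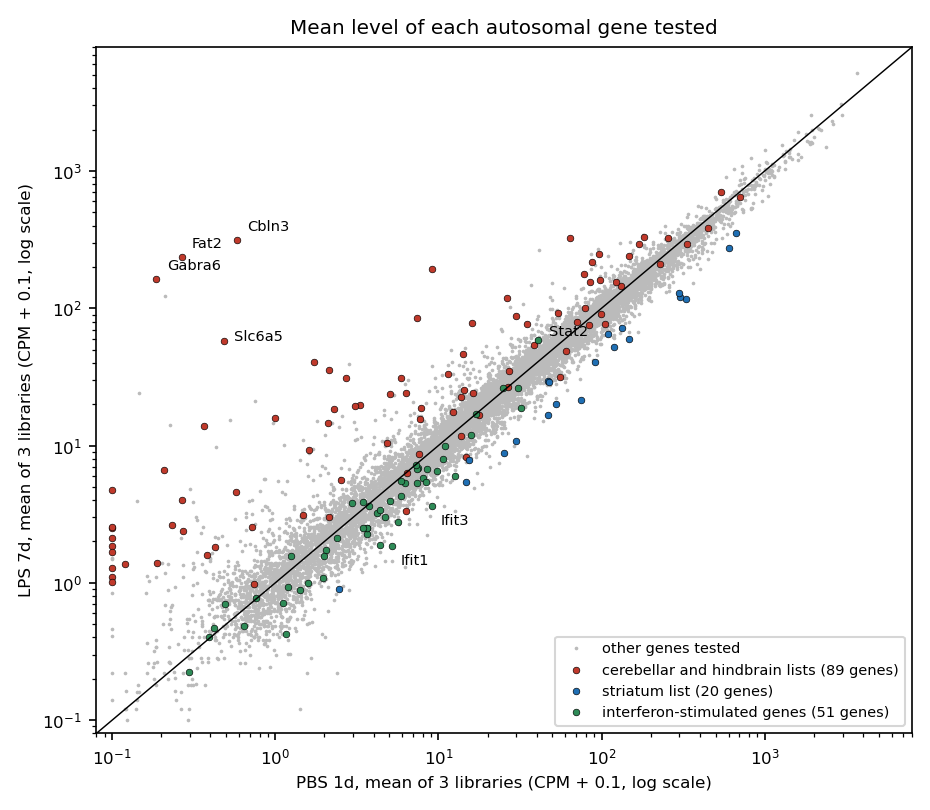
Mean level of each of the 14300 autosomal genes tested in PBS 1d (x axis) against LPS 7d (y axis), in CPM plus 0.1 on log scales, each the mean of 3 libraries, with the line of equality. Red points mark the 89 tested members of the cerebellar and hindbrain lists, many of which lie far above the line, blue points the 20 members of the striatum list, all below it, and green points the 51 interferon-stimulated genes.

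The largest differences a week after LPS belonged to genes of the cerebellum and hindbrain, which were near or at 0 in the PBS 1d libraries. Gabra6 (chr11:42197264-42211899 on GRCm39), the GABA-A receptor subunit that marks cerebellar granule cells, stood at 0.0587, 0.0633 and 0.136 CPM in the 3 PBS 1d libraries and at 167, 159.6 and 165 CPM in the 3 LPS 7d libraries. Its log2 difference was 10.80 ± 0.15 (SE, n = 3 and 3, edgeR adjusted p = 1.53e-48). Every LPS 7d library was high and every PBS 1d library was close to 0, and the LPS 1d libraries were also close to 0, at 0, 0 and 0.0608 CPM. Fat2 (chr11:55141435-55227390), a giant cadherin of granule cells, rose from 0.294, 0 and 0.204 CPM to 222, 238 and 251 CPM, a log2 difference of 10.39 ± 0.14 (edgeR adjusted p = 8.22e-49). Cbln3 (chr14:56116370-56121849), a secreted synaptic organiser of granule cells, rose from 0.47, 0.569 and 0.409 CPM to 315, 312 and 318 CPM, with a log2 difference of 9.32 ± 0.10 (edgeR adjusted p = 1.74e-52). For both genes the groups lay far apart, and the spread within LPS 7d was a small fraction of the level. Gabra6, Fat2 and Cbln3 had enough counts to be tested only through libraries where they were high. Their differences and p-values are therefore a description and not support for a direction.

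Of the 28 tested granule cell markers, 25 were called higher and 3 lower, with a median log2 difference of 1.55 against 0.0035 over all genes tested. Summed over the list, the level was 1713 to 1740.3 CPM in PBS 1d and 3575 to 3620.2 CPM in LPS 7d. The same markers gave 3 higher and 8 lower calls at LPS 1d against the same PBS libraries. Over all genes tested 25.1% were called higher and 24.2% lower at LPS 1d, and these shares stand beside every LPS 1d count below. Purkinje cells are the output neurons of the cerebellar cortex, and of 26 tested markers of these cells and of cerebellar interneurons 21 were called higher and 4 lower (median 1.43). Members near 0 in PBS 1d, such as Gabra6 and Fat2, had enough counts to be tested only through the libraries where they were high. For such members of both lists the calls are a description and not support for a direction. Car8, a regulator of the inositol trisphosphate receptor in Purkinje cells, stood at 9.63, 9.36 and 8.18 CPM in PBS 1d and at 199.9, 194 and 189.8 CPM in LPS 7d. Ppp1r17, a phosphatase inhibitor of the same cells, rose from 2.03 ± 0.425 to 35.2 ± 0.609 CPM (mean ± SD, n = 3 each), and Pvalb, the calcium buffer parvalbumin, rose from 26.3 ± 2.53 to 118 ± 3.5 CPM. The groups did not overlap for any of these 3 genes. Foxp2 went against the list, at 55.4 ± 0.479 CPM in PBS 1d and 31.5 ± 2.66 CPM in LPS 7d, and it is also a gene of striatum and thalamus.

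Genes of the lower brainstem moved in the same direction. Slc6a5 (chr7:49559894-49613604), the glycine transporter of glycinergic neurons, stood at 0.294, 0.443 and 0.409 CPM in PBS 1d, at 0.539, 0.374 and 0.608 CPM in LPS 1d and at 54.7, 59.1 and 59.6 CPM in LPS 7d, a log2 difference of 7.22 ± 0.16 at 7 days (edgeR adjusted p = 8.15e-39). Only the LPS 7d libraries were high. Of 22 tested markers of glycinergic, serotonergic and other brainstem neurons, 16 were called higher and 2 lower. The limit given above for members near 0 in PBS 1d holds here too. Slc6a4, the serotonin transporter, had no count in PBS 1d and 1.59, 1.6 and 1.54 CPM in LPS 7d, a level at least 25-fold higher when the PBS 1d group is given a floor of 3 counts in all. Hox genes set position along the hindbrain and spinal cord and are silent in the adult forebrain. Of 30 Hox and hindbrain transcription factors in the list 17 passed the filter on low counts. Of all members 19 had no count in PBS 1d, and those of them that passed did so through the libraries where they were high, so the calls are a description and not support for a direction. Among the 17, 13 were called higher and 1, Egr2, lower, and without the filter 27 were tested and 16 called higher. Hoxa5 had no count in any PBS 1d or LPS 1d library and 1.96, 2.16 and 1.89 CPM in LPS 7d, at least 31.7-fold higher. Hoxc4, whose transcripts overlap neighbouring Hox genes, gave the same pattern at 2.39, 1.23 and 1.6 CPM (at least 27.5-fold higher). Tlx3 and Lbx1, factors of dorsal hindbrain neurons, reached 3.68, 5.55 and 4.67 CPM and 1.96, 2.78 and 2.48 CPM from no count in PBS 1d. All 3 LPS 7d libraries held these transcripts at similar levels, and no PBS 1d library held any.

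**Figure D2:**
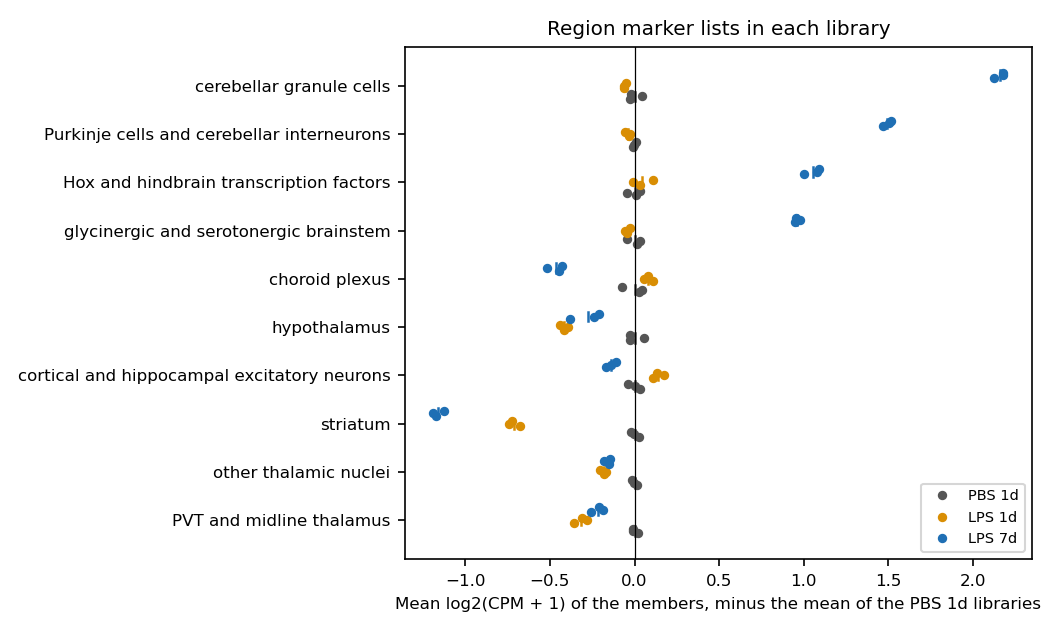
Mean log2(CPM + 1) of the members of 10 region marker lists in each of the 9 libraries, as the difference from the mean of the 3 PBS 1d libraries; each point is a library and each short bar a group mean. The LPS 7d libraries lie to the right for the 4 cerebellar and hindbrain lists and to the left for the 6 others plotted (striatum, choroid plexus, hypothalamus, cortex and hippocampus, and both thalamic lists), and libraries of a group lie close together.

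Striatal genes were lower in every LPS 7d library. All 20 tested markers of the striatum, the forebrain nucleus of dopamine-responsive spiny neurons, were called lower, with a median log2 difference of -1.26. Ppp1r1b (chr11:98239230-98248622), which encodes the dopamine-regulated phosphoprotein DARPP-32, stood at 309, 311 and 293 CPM in PBS 1d and at 119, 118 and 124 CPM in LPS 7d, a log2 difference of -1.34 ± 0.04 (edgeR adjusted p = 1.31e-31). Adora2a, an adenosine receptor, fell from 119 ± 3.5 to 51.8 ± 1.02 CPM, and Drd1, the dopamine D1 receptor, from 52.6 ± 1.19 to 20.002 ± 0.674 CPM. The groups did not overlap for these genes. At LPS 1d, 19 of the 20 were also called lower than the same PBS libraries, with a median of -0.78. In bulk tissue, fewer cells of a type and less RNA per cell cannot be told apart.

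Thalamic lists had smaller medians. Of 24 tested markers of the PVT and midline thalamus, 11 were called lower and 2 higher, with a median of -0.36; at LPS 1d, 16 were called lower and 1 higher. Drd2, the dopamine D2 receptor, which is also a striatal gene, stood at 86.8, 87.9 and 89 CPM in PBS 1d and 39.4, 43.7 and 41.8 CPM in LPS 7d. Penk, the enkephalin precursor, fell from 200.01 ± 19.2 to 113 ± 5.12 CPM, and Tcf7l2, a transcription factor of thalamic neurons, from 67 ± 1.91 to 40.6 ± 4.91 CPM. Calb2 (calretinin) and Grin2c, an NMDA receptor subunit, rose, to 159.7 ± 4.99 CPM from 97.1 ± 4.44 CPM and to 218 ± 11.1 CPM from 87.5 ± 3.11 CPM, and both are also genes of cerebellar granule cells. Of 24 tested markers of other thalamic nuclei 16 were called lower and 6 higher (median -0.45). Scn4b, a sodium channel subunit, fell by 1.23 ± 0.04 on the log2 scale, from 350.4, 359 and 374 CPM to 151, 153 and 157 CPM, with no overlap. Cortical and hippocampal excitatory markers gave 12 lower and 4 higher calls of 25, and hypothalamic markers 8 lower and 1 higher of 20. Of 19 habenula markers 5 were called lower and 4 higher (47.4% together, against 35.7% of all genes tested).

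The choroid plexus, which makes cerebrospinal fluid, and the ciliated ependyma lie next to the PVT along the ventricle. Of 20 tested choroid plexus markers 15 were called lower and none higher, with a median of -0.51. Kl, which encodes the hormone coreceptor klotho, stood at 39.9, 38.1 and 36.9 CPM in PBS 1d, 39.98, 45.5 and 44.2 CPM in LPS 1d and 16.2, 14.5 and 16.4 CPM in LPS 7d, a fall of 1.29 ± 0.08 on the log2 scale (edgeR adjusted p = 3.38e-19). Its LPS 7d libraries lay below all others. Clic6, a chloride channel protein of the same epithelium, fell from 30.7 ± 1.21 to 16.3 ± 1.23 CPM and Ttr, the thyroxine carrier transthyretin, from 389 ± 34.6 to 316 ± 7.13 CPM. At LPS 1d the list was not lower, with a summed level of 1156 to 1180.2 CPM against 1101 to 1211 CPM in PBS 1d and 819 to 841 CPM in LPS 7d. Of 23 ependymal and ciliary markers 11 were called lower and 4 higher; without the first LPS 7d library 7 were called lower. These regional differences run through every comparison that follows, and how much of any other list's difference goes with them was not tested.

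**Figure D3:**
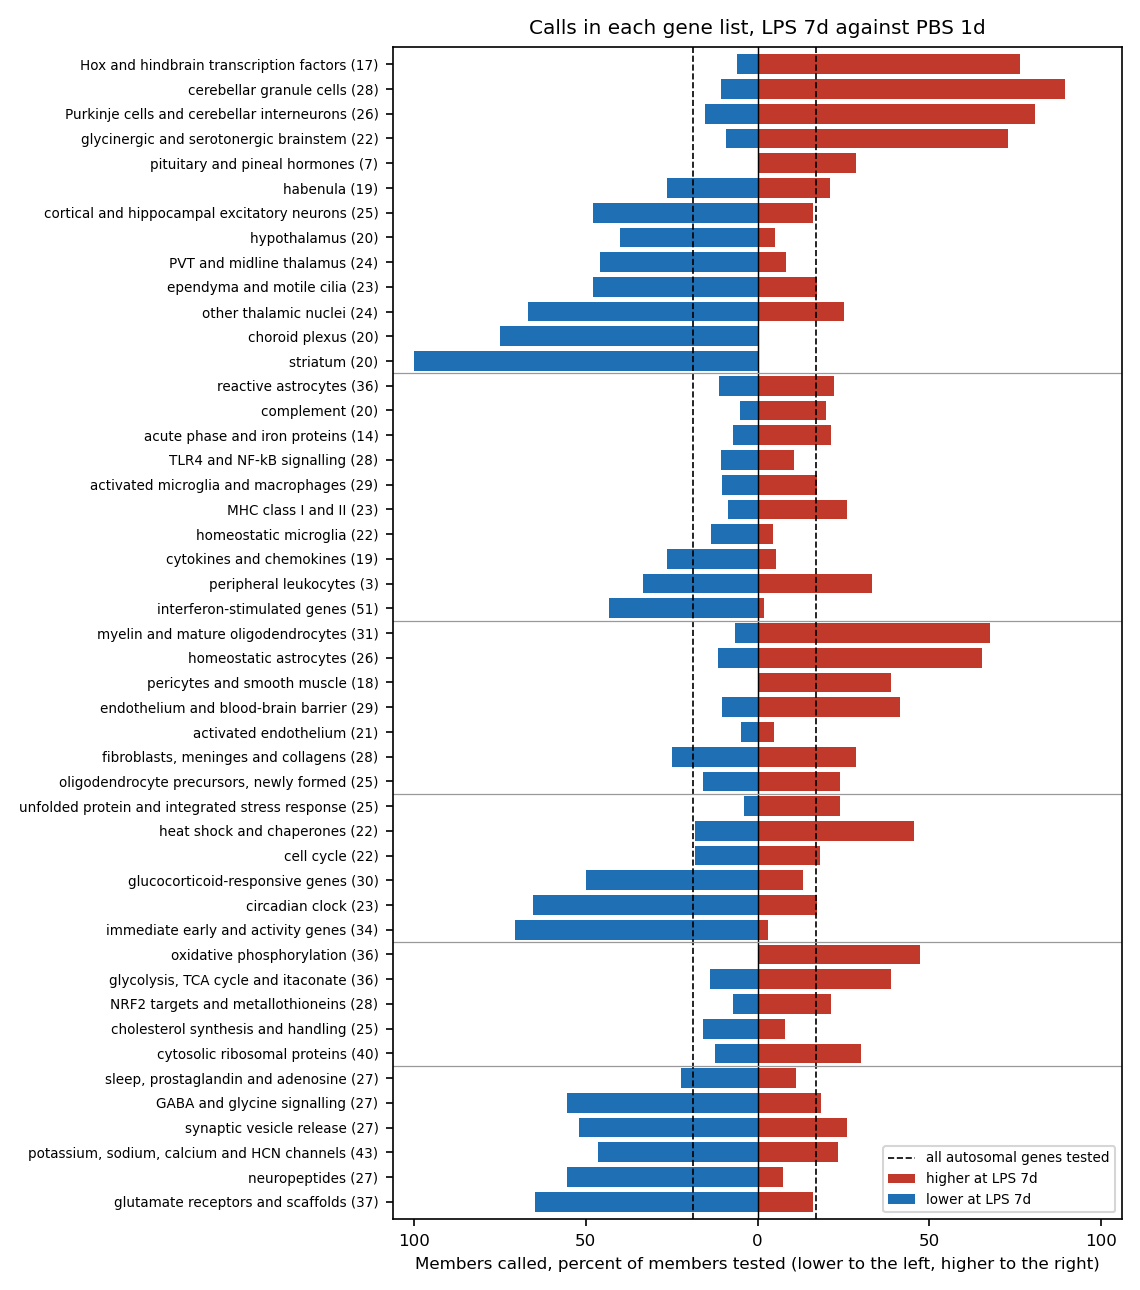
Share of the tested members of each gene list called higher (red, to the right) or lower (blue, to the left) in LPS 7d than in PBS 1d; the number of members tested is in brackets and lines separate the kinds of list. Dashed lines give the shares over all 14300 autosomal genes tested, 16.9% higher and 18.8% lower. Cerebellar and hindbrain lists, myelin and homeostatic astrocytes extend farthest to the right, and striatum, choroid plexus, activity genes, other thalamic nuclei and clock genes farthest to the left.

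Among the immune lists, interferon-stimulated genes had the largest share of lower calls at 7 days. Of 51 tested interferon-stimulated genes 22 were called lower and 1 higher (backgrounds 18.8% and 16.9%), with a median of -0.40. At LPS 1d, 49 of these genes were called higher than the same PBS libraries and none lower (25.1% and 24.2% of all genes tested), with a median of 1.64. Ifit3 (chr19:34560931-34566131), whose protein restricts viral RNA, stood at 9.16, 9.36 and 8.52 CPM in PBS 1d, 55.9, 56.9 and 57.2 CPM in LPS 1d and 3.86, 3.58 and 3.13 CPM in LPS 7d. Its log2 difference at 7 days was -1.36 ± 0.13 (n = 3 and 3, edgeR adjusted p = 1.93e-12). Ifit1, of the same family, stood at 4.58, 4.68 and 6.06 CPM in PBS 1d and 1.1, 1.85 and 2.31 CPM in LPS 7d (-1.53 ± 0.20, edgeR adjusted p = 7.76e-09). Irf7, the factor that amplifies interferon production, stood at 4.17, 4.87 and 3.88 CPM in PBS 1d and 1.41, 2.47 and 1.48 CPM in LPS 7d (-1.27 ± 0.20, edgeR adjusted p = 7.08e-07). In these 3 genes the LPS 7d libraries lay below every PBS 1d library and the LPS 1d libraries far above. Ifit3b, a near-identical copy of Ifit3 whose reads the counting could have split, fell from 5.53 ± 1.3 to 2.68 ± 0.435 CPM and is uncertain for that reason.

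Most of these falls were from low levels. Xaf1, an interferon-induced regulator of apoptosis, fell from 12.6 ± 1.67 to 5.87 ± 0.92 CPM, Lgals3bp, a secreted glycoprotein, from 31.8 ± 2.68 to 18.8 ± 2.31 CPM, and Oasl2, an antiviral synthetase-like protein, from 8.31 ± 0.584 to 5.33 ± 0.575 CPM. The guanylate-binding protein genes Gbp2 and Gbp3 fell from 4.62 ± 0.294 to 2.93 ± 0.562 CPM and from 7.89 ± 0.199 to 5.74 ± 0.198 CPM. The Gbp genes form a family of close copies. Stat2, the interferon signal transducer, went the other way, at 42.5, 41.1 and 39.1 CPM in PBS 1d and 56.5, 54.9 and 63.6 CPM in LPS 7d (log2 difference 0.51 ± 0.06, edgeR adjusted p = 1.11e-09). Irf9, its partner, stood at 16.8 ± 0.201 CPM in PBS 1d and 16.8 ± 2.02 CPM in LPS 7d and was not called. Isg15, a ubiquitin-like modifier, stood at 1.89 ± 0.332 CPM in PBS 1d and 1.46 ± 0.515 CPM in LPS 7d and was not called.

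Promoters of the called genes are shown because the interferon factors bind a short repeated element, the interferon-stimulated response element (ISRE). The 250 bases before the transcription start were searched on both strands for the core of this element, GAAA followed by any 2 bases and GAAA again, whose matches may overlap, in RefSeq promoters of build GRCm38.p6. The gene coordinates given above are on GRCm39 and belong to another build. The core occurred in 978 of 32851 promoters (2.977%). Among the 22 interferon-stimulated genes called lower, 16 had a promoter in the table and 9 of these held the core; so did the promoter of Stat2, and 8 of 20 genes that were not called or not tested. Capitals mark the matches, which read TTTC where the core lies on the other strand.
Ifit3 (chr19:34583279-34583528, plus strand): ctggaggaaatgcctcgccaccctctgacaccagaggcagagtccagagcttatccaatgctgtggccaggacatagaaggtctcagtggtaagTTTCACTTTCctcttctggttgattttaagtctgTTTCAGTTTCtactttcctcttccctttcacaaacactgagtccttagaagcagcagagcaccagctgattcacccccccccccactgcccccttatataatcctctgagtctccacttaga
Ifit3b (chr19:34607707-34607956, plus strand): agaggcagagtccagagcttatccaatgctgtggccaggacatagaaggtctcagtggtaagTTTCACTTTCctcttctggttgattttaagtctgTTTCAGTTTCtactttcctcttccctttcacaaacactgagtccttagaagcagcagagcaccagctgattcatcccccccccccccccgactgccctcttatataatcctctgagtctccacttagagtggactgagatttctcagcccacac
Ifit1 (chr19:34640639-34640888, plus strand): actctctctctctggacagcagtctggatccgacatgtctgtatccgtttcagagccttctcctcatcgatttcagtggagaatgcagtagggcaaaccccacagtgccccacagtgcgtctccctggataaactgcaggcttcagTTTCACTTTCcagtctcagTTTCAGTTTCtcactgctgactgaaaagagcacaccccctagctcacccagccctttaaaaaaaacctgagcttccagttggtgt
Gbp2 (chr3:142620413-142620662, plus strand): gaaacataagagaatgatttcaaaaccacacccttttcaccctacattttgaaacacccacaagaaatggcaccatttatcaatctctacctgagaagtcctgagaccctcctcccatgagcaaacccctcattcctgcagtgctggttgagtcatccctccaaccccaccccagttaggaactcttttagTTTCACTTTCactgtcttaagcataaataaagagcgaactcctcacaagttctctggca
Gbp3 (chr3:142559794-142560043, plus strand): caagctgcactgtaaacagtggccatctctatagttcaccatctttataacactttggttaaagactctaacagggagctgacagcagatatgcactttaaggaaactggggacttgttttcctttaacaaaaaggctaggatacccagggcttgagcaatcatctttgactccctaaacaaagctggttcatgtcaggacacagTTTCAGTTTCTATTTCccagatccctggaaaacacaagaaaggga
A match describes the letters only. The gene with the largest fall among those shown, Ifit1, and the gene with the smallest, Gbp3, each held 2 matches in the promoter shown. Irf7, which fell by 1.27 on the log2 scale, held none in this window. A second promoter of Gbp3, not shown, also held none. Genes with several promoters were counted as holding the core if any of them did.

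**Figure D4:**
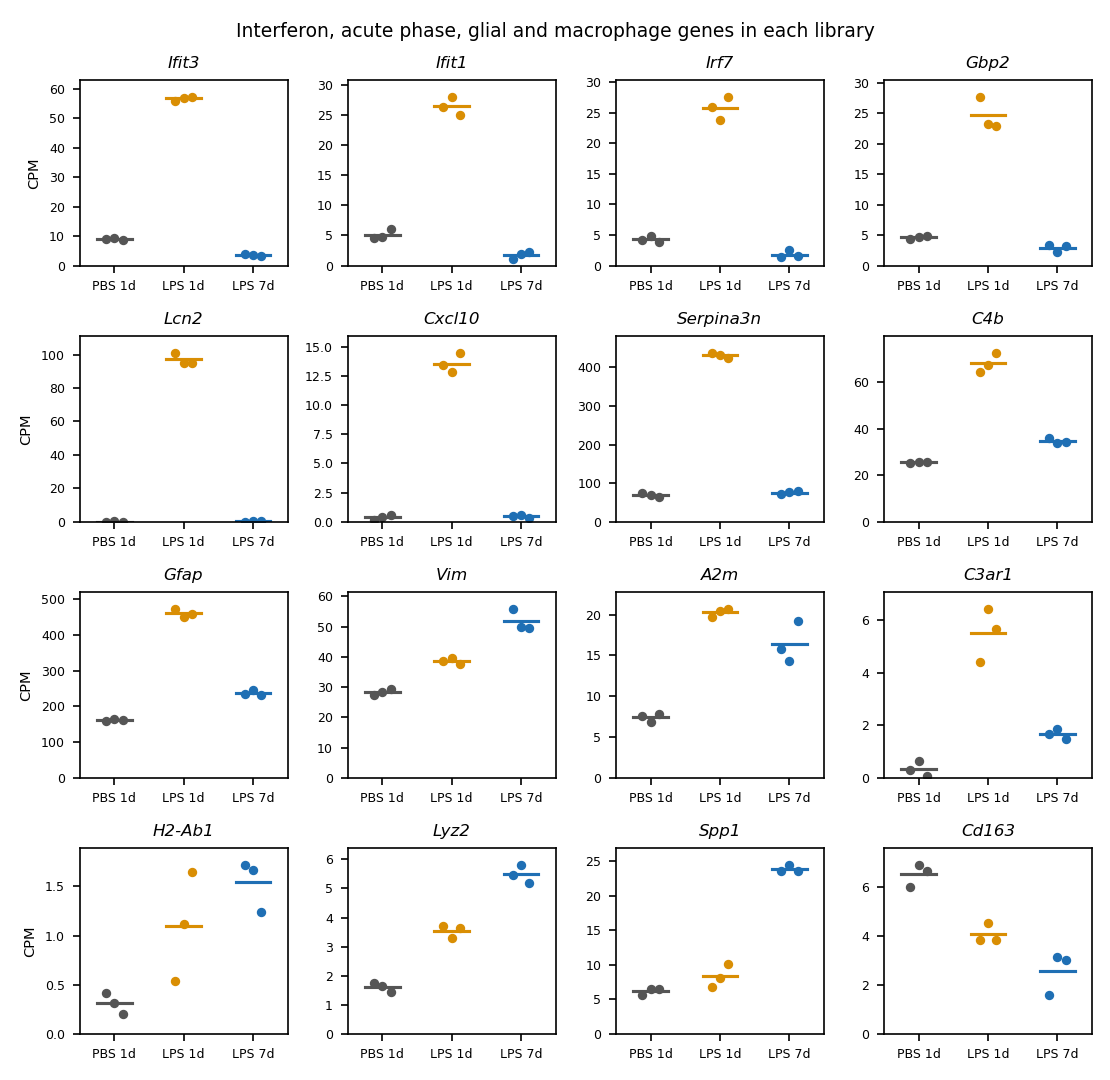
Level of 16 immune and glial genes in CPM in each of the 3 PBS 1d, 3 LPS 1d and 3 LPS 7d libraries; points are libraries, bars are group means and each y axis starts at 0. Ifit3, Ifit1, Irf7 and Gbp2 are lower in LPS 7d than in PBS 1d after high values in LPS 1d, whereas Gfap, Vim, A2m, C3ar1, Lyz2 and Spp1 are higher in LPS 7d.

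Most tested acute phase genes were not called a week after LPS, which was also so for all genes tested. Lcn2, the iron-sequestering protein lipocalin 2, stood at 0.0587, 0.127 and 0.0681 CPM in PBS 1d, 101, 95.1 and 95.2 CPM in LPS 1d and 0.0613, 0.432 and 0.237 CPM in LPS 7d, and the 7 day difference was not called (edgeR adjusted p = 0.12). Cxcl10, a chemokine induced by interferon, stood at 0.117, 0.443 and 0.545 CPM, 13.4, 12.8 and 14.5 CPM and 0.49, 0.555 and 0.355 CPM in the same order and was not called at 7 days. Serpina3n, a serine protease inhibitor, stood at 73.4, 68.6 and 63.2 CPM in PBS 1d and 72.1, 75.7 and 78.7 CPM in LPS 7d, with LPS 1d at 437, 433 and 423 CPM. Its small 7 day difference was called, but the call was lost when the third PBS 1d library or the second or the third LPS 7d library was left out. A2m, a broad protease inhibitor, rose, at 7.64, 6.83 and 7.83 CPM in PBS 1d and 15.7, 14.4 and 19.2 CPM in LPS 7d (log2 difference 1.15 ± 0.12, edgeR adjusted p = 8.13e-12). Lbp, the LPS carrier, was lower at 7 days (7.08 ± 0.443 against 10.4 ± 0.482 CPM). Of 27 acute phase genes in the list 14 were tested. Among these, 3 were called higher and 1 lower (28.6% together, against 35.7% of all genes tested). At LPS 1d the calls were 11 and 1. Without the third PBS 1d library 1 was called higher at 7 days.

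Cytokine messages were sparse. Il1b, Il6, Tnf, Ccl2, S100a8, S100a9 and the leukocyte gene Cd3e received at most 4 counts in any PBS 1d or LPS 7d library and did not pass the filter, and the neutrophil gene Ly6g received none. Among 19 tested cytokine and chemokine genes 5 were called lower and 1 higher (31.6% together, against 35.7% of all genes tested). Cx3cl1, the neuronal ligand of the microglial receptor CX3CR1, fell from 733 ± 22 to 504 ± 28.4 CPM, Il18 from 20.1 ± 1.23 to 10.9 ± 0.908 CPM and Il34, a ligand that sustains microglia, from 35.6 ± 3.99 to 23.9 ± 2.43 CPM. Ackr1, a chemokine-binding receptor of venules, rose from 24.8 ± 2.55 to 39.3 ± 1.92 CPM. In the pathway that senses LPS, 3 of 28 tested genes were called higher and 3 lower (21.4% together, under the 35.7% over all genes tested). Nfkbie, an NF-kB inhibitor, rose from 2.4 ± 0.177 to 5.72 ± 0.481 CPM, and Nfkbia, another, fell from 21.9 ± 1.31 to 16.8 ± 0.704 CPM. Tlr4 itself stood at 1.09 ± 0.413 CPM in PBS 1d and 1.86 ± 0.517 CPM in LPS 7d and was not called.

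A few complement, antigen presentation and macrophage genes were higher than in PBS 1d, but as lists their shares of higher calls lay near the 16.9% over all genes tested or, for antigen presentation, somewhat above it. C3ar1, the complement C3a receptor of microglia and macrophages, stood at 0.294, 0.633 and 0.0681 CPM in PBS 1d, 4.39, 6.41 and 5.66 CPM in LPS 1d and 1.65, 1.85 and 1.48 CPM in LPS 7d (log2 difference at 7 days 2.28 ± 0.41, edgeR adjusted p = 1.06e-05). All LPS 7d libraries lay above PBS 1d and below LPS 1d. C4b, complement component 4, rose from 25.5 ± 0.387 to 34.6 ± 1.14 CPM, and Serping1, the C1 inhibitor, from 4.91 ± 0.703 to 8.12 ± 0.9 CPM. Of 20 tested complement genes 4 were called higher and 1 lower, and the lower call, Clu, was lost without the first or the second library of either group. H2-Ab1, a chain of the class II molecule that presents antigen, stood at 0.411, 0.316 and 0.204 CPM in PBS 1d and 1.72, 1.67 and 1.24 CPM in LPS 7d (2.26 ± 0.46, edgeR adjusted p = 6.77e-05), and Cd74, its invariant chain, rose from 2.34 ± 0.271 to 4.08 ± 0.659 CPM. These are low levels. C3ar1 and H2-Ab1 had enough counts to be tested only through the libraries where they were high. Their calls are therefore a description and not support for a direction. Of 23 tested genes of antigen presentation 6 were called higher and 2 lower, and without the second LPS 7d library none was called lower.

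Macrophage genes were mixed. Spp1, the secreted phosphoprotein osteopontin, rose from 5.64, 6.52 and 6.54 CPM to 23.6, 24.4 and 23.7 CPM (1.94 ± 0.12, edgeR adjusted p = 1.25e-19), and it is also a gene of brainstem neurons. Lyz2, lysozyme of macrophages and a close copy of Lyz1, rose from 1.76, 1.64 and 1.43 CPM to 5.45, 5.8 and 5.2 CPM (1.76 ± 0.21, edgeR adjusted p = 1.74e-09). Gpnmb, a glycoprotein of lipid-laden macrophages, rose from 0.406 ± 0.186 to 1.8 ± 0.0333 CPM and stood at 1.72 ± 0.179 CPM at LPS 1d. It had enough counts to be tested only through the LPS libraries, so its call is a description only. Cd163, the haemoglobin scavenger receptor of border macrophages, fell from 5.99, 6.89 and 6.68 CPM to 1.59, 3.15 and 3.02 CPM, and Lpl, lipoprotein lipase, fell from 41.3 ± 2.41 to 23 ± 0.698 CPM. The groups of 3 did not overlap for any of these genes. Over the 29 tested genes of activated microglia and macrophages 5 were called higher, close to the 16.9% over all genes, and 3 lower, under the 18.8%. Homeostatic microglial genes gave 1 higher and 3 lower calls of 22: the purinergic receptor gene P2ry12 stood at 31.4 ± 1.24 and 26.5 ± 0.948 CPM, Tmem119 at 19.9 ± 2.13 and 18.3 ± 1.62 CPM and Csf1r at 84.9 ± 4.89 and 90.2 ± 0.834 CPM. The P2ry12 call was lost without the third library of either group.

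Cd4, which in these lists stands for T helper cells and is also transcribed by other brain cells, fell from 15.9, 15.1 and 18 CPM to 4.59, 5.12 and 4.61 CPM, and Itgal, an integrin of leukocytes, rose from 0.764, 0.506 and 0.545 CPM to 1.96, 2.78 and 2.31 CPM. Ptprc, the pan-leukocyte marker CD45, was not called (5.38 ± 1.38 and 4.52 ± 0.737 CPM). Only these 3 leukocyte genes passed the filter, and Itgal did so only through libraries where it was high, so its call is a description.

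Most reactive astrocyte genes were not called at 7 days, and the intermediate filament genes were among those that were. Gfap, the defining filament of reactive astrocytes, stood at 159.98, 165 and 161 CPM in PBS 1d, 473, 451 and 459.7 CPM in LPS 1d and 234, 245 and 233 CPM in LPS 7d (log2 difference at 7 days 0.55 ± 0.04, edgeR adjusted p = 4.06e-17). Vim, vimentin, stood at 27.3, 28.3 and 29.2 CPM in PBS 1d, 38.8, 39.5 and 37.5 CPM in LPS 1d and 55.8, 50.02 and 49.6 CPM in LPS 7d (0.87 ± 0.07, edgeR adjusted p = 1.7e-15). The 7 day level of Gfap lay between the other groups, while that of Vim was the highest of the 3. Osmr, the oncostatin M receptor, rose from 5.32 ± 0.809 to 8.18 ± 0.699 CPM, with 35.6 ± 1.42 CPM at LPS 1d, and Stat3, its signal transducer, was not called (85.8 ± 3.25 and 84.6 ± 4.65 CPM). Of 36 tested reactive astrocyte genes 8 were called higher and 4 lower at 7 days, against 30 and 2 at LPS 1d. The 7 day calls covered 33.3% of the list, close to the 35.7% over all genes tested. Without the third PBS 1d library 2 were called lower at 7 days.

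Most homeostatic astrocyte genes were higher at 7 days, with 17 of 26 called higher and 3 lower and a median of 0.21. Aqp4, the water channel of astrocyte endfeet, stood at 156, 153 and 152 CPM in PBS 1d, 143, 143 and 142 CPM in LPS 1d and 258, 246 and 247 CPM in LPS 7d. S100b, a calcium-binding protein, rose from 114 ± 9.33 to 202 ± 12.2 CPM, Aldoc, an aldolase, from 650.2 ± 11.1 to 1042 ± 20.2 CPM, and Gdf10, a growth factor, from 13.3 ± 1.38 to 38.6 ± 1.75 CPM. Slc1a2, the forebrain glutamate transporter, fell from 1917 ± 44.2 to 1628 ± 24.1 CPM, whereas Slc1a3, the transporter that is high in cerebellar glia, rose from 544 ± 7.7 to 694 ± 11.9 CPM. Aldoc is also made by Purkinje cells, and Gdf10 by Bergmann glia of the cerebellum.

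Most myelin genes rose. Of 31 tested markers of mature oligodendrocytes, the cells that wrap axons, 21 were called higher and 2 lower, with a median of 0.30, against 5 higher and 21 lower at LPS 1d. Mobp, a myelin structural protein, stood at 853, 847 and 788 CPM in PBS 1d and 1213, 1249.6 and 1256 CPM in LPS 7d (0.58 ± 0.03, edgeR adjusted p = 1.75e-20). Mbp, myelin basic protein, rose from 3666 ± 203 to 5172 ± 363 CPM, and Klk6, a protease of oligodendrocytes, from 8.57, 7.4 and 8.99 CPM to 20.6, 20.4 and 20.05 CPM. Enpp2, a lipid-producing enzyme, fell from 557 ± 23.2 to 384 ± 8.45 CPM and is also a choroid plexus gene. The groups did not overlap for these 4 genes. Oligodendrocyte precursor markers gave 6 higher and 4 lower calls of 25 (40% together, against 35.7% of all genes tested). Bcas1, of newly formed oligodendrocytes, rose from 105 ± 3.03 to 179 ± 2.68 CPM. Pdgfra, the receptor that defines the precursors, fell from 85.7 ± 3.35 to 74.5 ± 4.21 CPM. Markers of the hindbrain, which is rich in white matter, were also higher in LPS 7d, and their part in the myelin counts was not tested.

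Some vessel genes were higher. Of 29 tested endothelial and barrier genes 12 were called higher and 3 lower (51.7% together). Of 18 pericyte and smooth muscle genes 7 were called higher and none lower (38.9% together). Over all genes tested 16.9% were called higher and 18.8% lower, 35.7% together. Cldn5, the tight junction protein of the blood-brain barrier, stood at 19.6, 17.1 and 21.9 CPM in PBS 1d, 37.2, 28.4 and 31.2 CPM in LPS 1d and 36.6, 39.5 and 38.3 CPM in LPS 7d (0.97 ± 0.09, edgeR adjusted p = 1.68e-13). Rgs5, a pericyte regulator of G protein signalling, rose from 98, 99.9 and 94.8 CPM to 182, 168 and 166 CPM (0.82 ± 0.05, edgeR adjusted p = 1.01e-20), and at LPS 1d it stood at 94.1 ± 3.7 CPM. Both genes were high in every LPS 7d library without overlap with PBS 1d. Slc2a1, the glucose transporter of the barrier, fell from 130.5 ± 4.09 to 109.9 ± 1.91 CPM. Of 21 genes of activated endothelium 1, Ackr1, was called higher and 1 lower (9.5% together, under the share over all genes tested). Collagen and fibroblast genes split, with 8 higher and 7 lower calls of 28 (53.6% together). Without the second LPS 7d library 4 were called higher. Col3a1 rose from 4.98 ± 0.939 to 9.02 ± 0.861 CPM and Col6a1 fell from 58.5 ± 3.27 to 31 ± 1.96 CPM.

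Most clock genes were lower. The circadian clock is a loop in which BMAL1 (Arntl) and CLOCK drive the Per, Cry, Nr1d and PAR factor genes through E-boxes in their promoters, and the products of Per and Cry then repress it. Of 23 tested clock genes 15 were called lower and 4 higher, with a median of -0.34. Dbp, an output factor of the loop, stood at 49.4, 54.1 and 54 CPM in PBS 1d, 22.2, 27.2 and 27.3 CPM in LPS 1d and 19.4, 22.5 and 24.8 CPM in LPS 7d (-1.24 ± 0.08, edgeR adjusted p = 1.46e-18). Per1, a repressor, stood at 143, 139 and 139.5 CPM, 218, 211 and 219 CPM and 83.9, 89.4 and 91.6 CPM in the same order (-0.67 ± 0.05, edgeR adjusted p = 6.98e-18). Ciart, another repressor, stood at 17.7, 16.3 and 16.8 CPM, 22.7, 22.4 and 21.4 CPM and 9.19, 8.7 and 8.04 CPM (-0.97 ± 0.11, edgeR adjusted p = 6.08e-11). In all 3 genes the LPS 7d libraries lay below PBS 1d. Per2 and Nr1d1 fell as well, from 58 ± 2.22 to 37.8 ± 2.26 CPM and from 145 ± 7.87 to 100.2 ± 4.02 CPM.

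Of the 4 clock genes called higher, Arntl rose from 34.2, 29.7 and 28.1 CPM to 42.4, 40.6 and 44.2 CPM (0.46 ± 0.07, edgeR adjusted p = 5.6e-07) and Cry1, a repressor, from 15.4, 15.9 and 18.7 CPM to 25.5, 22.4 and 24.8 CPM (0.55 ± 0.09, edgeR adjusted p = 1.79e-06). Neither gene overlapped between the groups. Nfil3, an antagonist of the PAR factors, rose from 9.43 ± 0.443 to 13.6 ± 1.43 CPM, and the fourth higher call, Clock, was lost without the first or the second library of either group. The hour of collection is not among the labels, so a difference in hour and the difference in treatment and day cannot be told apart.

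Because the loop acts on E-boxes, the 250 bases before each start were searched on both strands for CACGTG, in the same RefSeq promoters of GRCm38.p6. It occurred in 1978 of 32851 promoters (6.021%). Of the 15 clock genes called lower 13 had a promoter in the table and 4 of these held the letters, as did 1 of the 4 called higher. The promoters of Ciart, Per1 and Tef, which fell, and of Cry1, which rose, are shown with the matches in capitals.
Ciart (chr3:95882229-95882478, minus strand): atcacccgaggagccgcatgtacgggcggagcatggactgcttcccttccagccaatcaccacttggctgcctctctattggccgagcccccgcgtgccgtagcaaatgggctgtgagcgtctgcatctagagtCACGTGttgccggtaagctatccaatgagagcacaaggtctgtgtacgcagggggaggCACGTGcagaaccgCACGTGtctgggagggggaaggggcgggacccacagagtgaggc
Per1 (chr11:69098699-69098948, plus strand): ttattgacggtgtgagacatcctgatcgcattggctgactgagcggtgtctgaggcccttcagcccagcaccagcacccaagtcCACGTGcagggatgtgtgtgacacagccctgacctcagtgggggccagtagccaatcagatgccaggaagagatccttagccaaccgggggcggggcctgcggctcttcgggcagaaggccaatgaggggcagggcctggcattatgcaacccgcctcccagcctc
Tef (chr15:81802423-81802672, plus strand): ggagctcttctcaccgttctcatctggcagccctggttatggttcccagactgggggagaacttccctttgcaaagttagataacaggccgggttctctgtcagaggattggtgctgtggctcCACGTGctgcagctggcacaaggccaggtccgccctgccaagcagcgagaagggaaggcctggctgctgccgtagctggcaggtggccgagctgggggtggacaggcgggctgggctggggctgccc
Cry1 (chr10:85185055-85185304, minus strand): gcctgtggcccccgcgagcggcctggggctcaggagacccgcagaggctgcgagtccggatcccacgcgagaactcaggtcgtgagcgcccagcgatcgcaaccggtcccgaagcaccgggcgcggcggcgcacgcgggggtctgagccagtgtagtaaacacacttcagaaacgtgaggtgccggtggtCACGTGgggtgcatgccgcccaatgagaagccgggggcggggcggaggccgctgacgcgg
Ciart held 3 matches, 116, 58 and 44 bases before the start. Per1 and Cry1 thus moved in opposite directions with 1 match each in the promoters shown, and the promoter of Dbp held none in this window. A second promoter of Per1, not shown, held no match, and a second promoter of Tef held 1. A gene with several promoters was counted as holding the letters if any of them did.

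**Figure D5:**
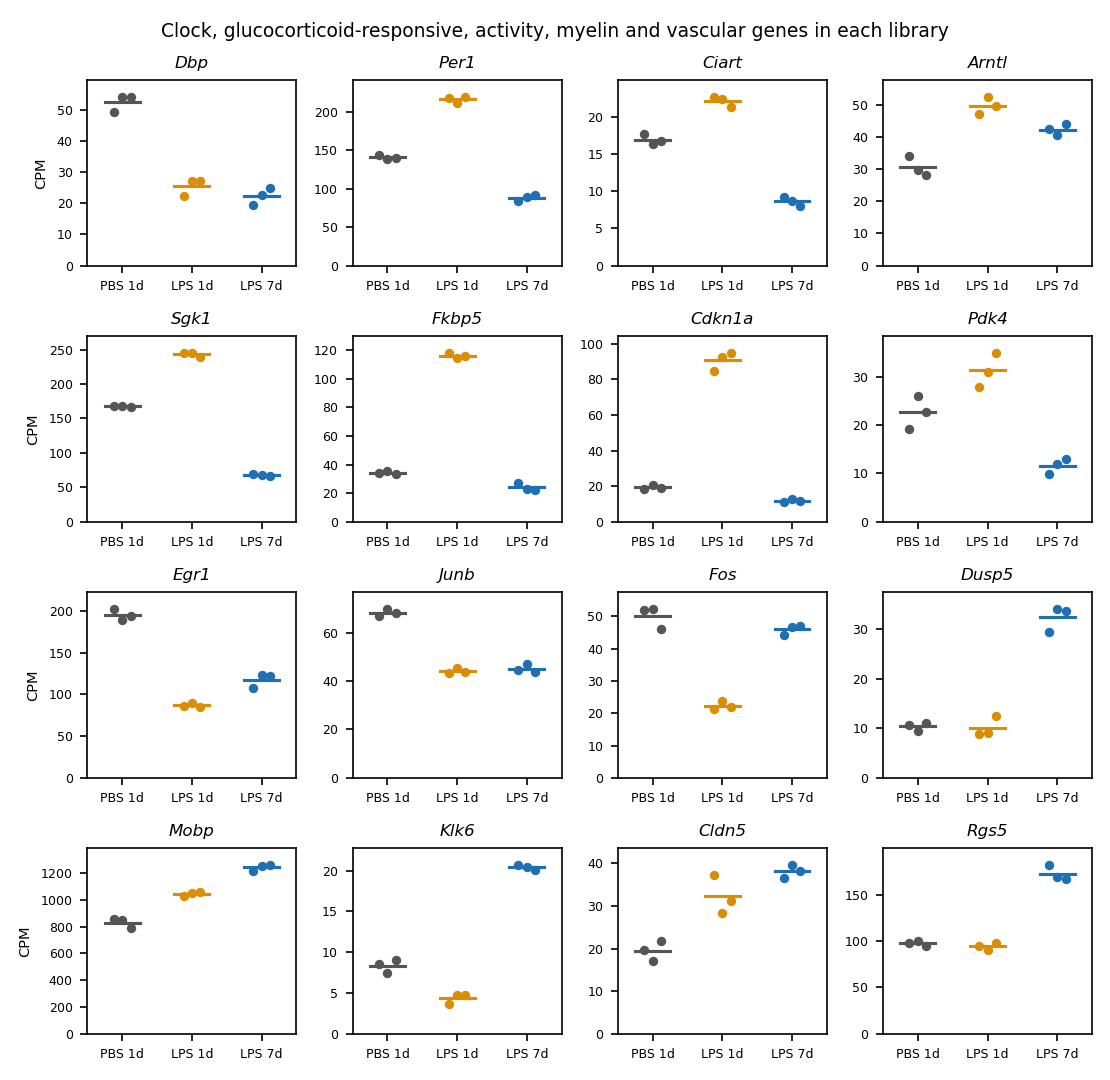
Level of 16 clock, glucocorticoid-responsive, activity, myelin and vascular genes in CPM in each of the 9 libraries; points are libraries, bars are group means and each y axis starts at 0. Sgk1, Fkbp5, Cdkn1a and Per1 are lowest in LPS 7d after high values in LPS 1d, while Dusp5, Klk6, Cldn5 and Rgs5 are highest in LPS 7d.

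Many genes that respond to glucocorticoids, the adrenal stress hormones, were lower a week after LPS. Of 30 tested genes 15 were called lower and 4 higher, with a median of -0.17, against 26 higher and 1 lower at LPS 1d. Sgk1 (chr10:21758083-21875802), a kinase induced by these hormones, stood at 167, 169 and 166 CPM in PBS 1d, 245, 245 and 239 CPM in LPS 1d and 68.8, 67.8 and 66.2 CPM in LPS 7d. Its log2 difference at 7 days, -1.31 ± 0.04, had the lowest p among the falls outside the region lists (edgeR adjusted p = 3.39e-30). The libraries of each group agreed closely and the groups did not overlap. Fkbp5, the cochaperone that restrains the glucocorticoid receptor, stood at 34.1, 35.6 and 33 CPM, 118, 115 and 116 CPM and 27.4, 23.1 and 22.2 CPM in the same order (-0.50 ± 0.07, edgeR adjusted p = 8.54e-08). Cdkn1a, the cell cycle inhibitor p21, fell from 19.3 ± 1.23 to 11.7 ± 1.03 CPM, with 90.8 ± 5.25 CPM at LPS 1d, and Pdk4, a brake on pyruvate oxidation, from 22.6 ± 3.34 to 11.6 ± 1.59 CPM. Fam107a, an actin-binding protein of astrocytes, was higher in LPS 7d (225 ± 0.497 against 163 ± 11.7 CPM). Sgk1 is also expressed in myelin-forming cells.

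Most immediate early genes, which neurons switch on within minutes of firing, were also lower. Of 34 tested genes 24 were called lower and 1 higher, with a median of -0.39; at LPS 1d 26 were called lower and 4 higher. Egr1 stood at 202, 189.9 and 194 CPM in PBS 1d, 86.5, 89.7 and 84.8 CPM in LPS 1d and 108, 123 and 122 CPM in LPS 7d (-0.73 ± 0.05, edgeR adjusted p = 7.31e-19). Junb fell from 67.2, 69.8 and 68.3 CPM to 44.8, 47.2 and 43.8 CPM (-0.60 ± 0.06, edgeR adjusted p = 2.64e-12). Homer1, a synaptic scaffold with an activity-induced form, fell from 125 ± 4.27 to 88.5 ± 8.77 CPM. For these 3 genes no LPS 7d library reached a PBS 1d library. Fos, the best-known member, was not called (52.1, 52.2 and 46.2 CPM in PBS 1d and 44.2, 46.6 and 47.1 CPM in LPS 7d). Dusp5, a phosphatase that switches off ERK in the nucleus, was the gene called higher, from 10.6, 9.36 and 11.1 CPM to 29.5, 34 and 33.6 CPM (1.65 ± 0.10, edgeR adjusted p = 4.7e-19). Many of these genes are also high in striatum, all of whose tested markers were called lower, and the part of this in the counts was not tested.

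Among other stress responses, Hspa8, the constitutive HSC70 chaperone, rose from 998 ± 42.3 to 1430.2 ± 24.1 CPM and Hspa1b, the inducible HSP70, fell from 11 ± 0.343 to 5.53 ± 0.697 CPM, with 10 higher and 4 lower calls among 22 chaperone genes. The unfolded protein list gave 6 higher and 1 lower calls of 25, mostly small, with Sdf2l1 the largest of those called, at 6.03 ± 1.75 CPM in PBS 1d and 9.37 ± 1.05 CPM in LPS 7d. Cell cycle genes gave 4 higher and 4 lower calls of 22, cholesterol genes 2 higher and 4 lower of 25, and NRF2 target genes 6 higher and 2 lower of 28. Calls in either direction covered 28% of the unfolded protein list and 36.4%, 24% and 28.6% of these 3. All were near or under the 35.7% over all genes tested. The higher calls in these 3 lists changed by more than 1.5-fold in number under some alternatives, to 2 without the second PBS 1d library, and to 7 and 10 with library totals as the scaling. Me1, the malic enzyme, rose from 40.5 ± 3.13 to 68 ± 3.39 CPM.

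Transcripts of neuronal signalling were mostly lower. Of 37 tested glutamate receptor and scaffold genes 24 were called lower and 6 higher (median -0.28), and those higher included genes of the cerebellum. Camk2a, the forebrain calcium kinase, fell from 2507, 2294 and 2339.9 CPM to 1422, 1524 and 1566 CPM (-0.66 ± 0.03, edgeR adjusted p = 1.12e-22). Grm4, the metabotropic receptor of granule cell terminals, rose from 101, 90.5 and 94.3 CPM to 251, 280.4 and 279 CPM (1.51 ± 0.05, edgeR adjusted p = 1.85e-30). Both genes separated the groups without overlap. GABA and glycine genes gave 15 lower and 5 higher calls of 27, where Gabra6 and Slc6a5 rose and Gad2, a GABA-making enzyme, and Gabra4, a receptor subunit of thalamus and striatum, fell, from 449 ± 10.3 to 336 ± 5.09 CPM and from 128 ± 5.88 to 87.1 ± 7.28 CPM. Among 43 ion channel genes 20 were called lower and 10 higher, and Kcnq3, which carries the M current, fell from 269 ± 9.1 to 172 ± 2.03 CPM.

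Related genes of the release machinery moved in opposite directions. Syt2 and Vamp1, the calcium sensor and the vesicle protein of fast hindbrain synapses, rose from 86, 83.6 and 88.6 CPM to 244, 249.6 and 257 CPM and from 180.4 ± 3.31 to 344 ± 7.93 CPM. Their forebrain counterparts Syt1 and Vamp2 fell, from 1592 ± 36.2 to 1197 ± 10.2 CPM and from 829 ± 15.5 to 735 ± 26.9 CPM. Over the 27 tested genes 14 were called lower and 7 higher. Of 27 neuropeptide precursors 15 were called lower and 2, Hcrt and Calca, higher. Most of the falls were among genes that are also in the region lists. With the region list genes left out 4 were called lower, but of fewer members tested, so this count cannot be set against the 15. Npy, neuropeptide Y, fell from 31.7 ± 1.79 to 16.3 ± 2.2 CPM, Sst, somatostatin, from 128 ± 9.72 to 79.9 ± 4.25 CPM, and Hcrt, the wake-promoting peptide orexin, was higher, at 18.9, 21.8 and 21.2 CPM in PBS 1d and 31.8, 31.3 and 29.5 CPM in LPS 7d. The orexin receptors Hcrtr1 and Hcrtr2 were not called (3.46 ± 0.541 and 3.67 ± 0.309 CPM, and 4.04 ± 0.406 and 5.14 ± 0.482 CPM). Among 27 sleep, prostaglandin and adenosine genes 6 were called lower and 3 higher (33.3% together, against 35.7% of all genes tested). Those lower included Adora2a and Hrh3, the histamine H3 receptor, which fell from 77 ± 1.73 to 42.7 ± 1.78 CPM. Without the first PBS 1d library 1 of this list was called higher.

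Some genes of energy metabolism rose slightly. Of 36 tested oxidative phosphorylation genes 17 were called higher and none lower (backgrounds 16.9% and 18.8%), with a median of 0.14. Without the first PBS 1d library only 7 were called higher. Ndufa4 rose from 78.8 ± 6.8 to 97.4 ± 0.897 CPM and Uqcrc1, of complex III, from 277 ± 11.2 to 319.6 ± 4.36 CPM. Of 36 genes of glycolysis, the tricarboxylic acid cycle and itaconate 14 were called higher and 5 lower (52.8% together, against 35.7% of all genes tested). The higher calls include Gapdh, whose counted reads are uncertain for the reason given below. Acod1, the enzyme named in the title of the series, makes the immune metabolite itaconate in activated macrophages. It received 1, 0 and 1 counts in PBS 1d, 8, 12 and 9 in LPS 1d and 0, 3 and 0 in LPS 7d, which left it under the filter. An exact two-sided permutation test of the 3 LPS 7d against the 3 PBS 1d libraries gave p = 1, but 0.1 is the smallest p this design allows, so the test could not pass a threshold of 0.05 and says nothing about a difference at 7 days. Ribosomal protein genes gave 12 higher and 5 lower calls of 40 (42.5% together, near the 35.7% over all genes tested). Without the first or the third PBS 1d library 7 were called higher. The 12 include Rps2, which is uncertain for the same reason as Gapdh.

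Some large differences fell outside the lists. Il16 (chr7:83292033-83394934), a leukocyte chemoattractant with a neuronal form that is also made in the cerebellum, stood at 2.88, 2.4 and 2.86 CPM in PBS 1d, 6.63, 7.04 and 5.9 CPM in LPS 1d and 36.6, 38.7 and 41.8 CPM in LPS 7d (3.84 ± 0.12, edgeR adjusted p = 1.3e-31). Crtam (chr9:40880987-40915924), an adhesion molecule of T cells and of some neurons, stood at 0, 0 and 0.136 CPM, 4.85, 4.23 and 4.32 CPM and 23.4, 25.2 and 24 CPM in the same order. PBS 1d held 2 counts of it in all, and the ratio of LPS 7d to PBS 1d was 574 with an exact 95% interval of 159 to 4747 that covers counting error only. In both genes the order of the groups was PBS 1d, LPS 1d and LPS 7d with no overlap. Cnpy1, a gene of the midbrain-hindbrain boundary, rose from 0, 0.127 and 0.204 CPM to 128, 118 and 121 CPM, and Chd7, a chromatin remodeller of granule cells, from 27.5 ± 2.47 to 102 ± 2.65 CPM. Crtam and Cnpy1 passed the filter only through libraries where they were high, so their rises are a description and not support for a direction.

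The largest falls were mostly of genes with low levels. Cdhr1, a protocadherin of photoreceptors and olfactory bulb, stood at 34.5, 35.8 and 33.7 CPM in PBS 1d, 9.17, 10.5 and 10.9 CPM in LPS 1d and 8.58, 9.56 and 6.8 CPM in LPS 7d (-2.06 ± 0.10, edgeR adjusted p = 4.1e-23). Prss56, a serine protease, fell from 2.06, 2.09 and 2.73 CPM to 0.184, 0.123 and 0.0591 CPM, and F5, coagulation factor V, from 12.5 ± 1.33 to 3.23 ± 0.519 CPM. Mfrp, a frizzled-related membrane protein, fell from 8.39 ± 0.435 to 2.12 ± 0.326 CPM, and Trpv1, the capsaicin receptor, from 1.09 ± 0.118 to 0.203 ± 0.0966 CPM. None of these groups overlapped. Outside the region lists the lowest p-values among falls included Nrgn, the calmodulin-binding protein neurogranin (404 ± 32 to 194 ± 4.13 CPM), Hpca, the hippocampal calcium sensor hippocalcin (478 ± 9.21 to 258 ± 10.5 CPM), and Pde1b, a phosphodiesterase of striatal neurons (452 ± 5.5 to 227 ± 7.78 CPM).

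Genes with near-identical copies are uncertain, because the counting could have split or dropped their reads. Gapdh, whose pseudogenes are numerous, stood at 43.3, 41.4 and 38.8 CPM in PBS 1d, 229.6, 233 and 212 CPM in LPS 1d and 221, 276 and 300.2 CPM in LPS 7d, although it codes for an abundant enzyme in all cells. Rps2 stood at 24.1, 25.1 and 24.5 CPM in PBS 1d and 67.9, 66.4 and 70.1 CPM in LPS 7d, and Rps3a1 at 34.9, 36.1 and 28.2 CPM and 110.4, 105 and 106 CPM. The vomeronasal receptor genes Vmn2r27 and Vmn2r84, members of a large family of close copies, changed in opposite directions, from 1.12, 1.39 and 1.43 CPM to 0, 0 and 0.0591 CPM and from 0, 0 and 0 CPM to 1.65, 1.54 and 1.06 CPM. For these genes a difference in counted reads is not shown to be a difference in the level of the named gene.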

How the data were processed

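Per the labels' protocols, Trizol was used for RNA and a TruSeq RNA kit for the libraries. The authors deposited 1 table with whole-number counts per gene and FPKM values for the 9 libraries; only the counts were tested, and FPKM, the authors' own scaling per length and depth, was not printed. HISAT2, HTSeq, TopHat2 and the build GRCm39 are named in the submitters' processing notes, without roles or versions; whether strand was used in counting is not given in the sources used here, so a gene and an antisense neighbour cannot be told apart.

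All 9 libraries entered 1 quasi-likelihood fit in edgeR 4.0.16 (R 4.3.3, limma 3.58.1) with a term for each of the 3 groups, TMM scaling and the default low-count filter of filterByExpr. The contrast was LPS 7d minus PBS 1d, with Benjamini-Hochberg adjustment over all 14837 genes tested on all chromosomes and a threshold of 0.05; only autosomal genes are reported. Every adjusted p is from edgeR. DESeq2 1.42.0 was an alternative. The script was tested on simulated data. Total counts of all 9 libraries were 13211422 to 17210526, the biological coefficient of variation was 4.15%, and within groups, counts varied beyond sampling noise, with chi-square values of 2.017 to 3.678 for each degree of freedom. LPS 1d shares its PBS 1d controls with the 7 day contrast, so its values stand beside those at 7 days only.

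Named genes came from a rule: the 12 largest rises and falls among called genes without overlap and with at least 1 CPM in a group, the 12 lowest p-values in each direction outside the region lists at 1.5-fold or more, and in each list up to 4 called members by p and up to 2 against its median. Not all of these are printed, and other members were named after their values were seen. The groups compared and the gene lists were chosen with earlier results of these data known. Promoters came from RefSeq on GRCm38.p6 and were matched by symbol. Intervals and floors cover counting error only. Left out were the X and Y chromosomes, except for the check of Y-linked counts, and a few single genes are not reported here.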

Additional observations from a re-analysis of the deposited data

Results flagged for a closer look

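Transcripts from the Y chromosome lie outside the autosomal comparison. They summed to 92.26 CPM of the library total in the lowest LPS 7d library and to 105.4 CPM in the highest, against 1, 0 and 0 counts in the 3 PBS 1d libraries, which are the controls. Sex is not among the labels, and it cannot be told apart from treatment and day in this comparison.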

How the results depend on the processing

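No called gene of the lists or named by rule changed direction under the alternatives run; genes that were not called did in some, and so did the medians of 6 lists with no direction given: cytokines, antigen presentation, activated microglia, cell cycle, ribosomal proteins and sleep. The 5111 called genes became 4998 with the 6 libraries alone, 4426 with DESeq2, 5221 without a filter on low counts and 5324 with library totals as the scaling. A test against a fold of 1.5 called 529 genes, 334 higher and 195 lower, of which 269 and 93 differed by at least 2-fold. Leaving out each library in turn gave 4474 to 5125 called genes, 2101 to 2424 higher and 2320 to 2701 lower, with 340 to 367 at least 2-fold higher and 172 to 197 at least 2-fold lower. With the replicate block, the number of each library as a term, 4969 genes were called, 2351 higher and 2618 lower. The numbers did not pair the libraries: deviations of same-numbered libraries correlated at -0.0183, 0.027 and -0.00647. Of the 22 interferon-stimulated genes called lower, 15 were called without the third LPS 7d library and 4 in the test against a fold of 1.5. Depth limits genes of a few counts per library, such as the cytokines and Acod1.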

Other observations

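The share of genes called rose with the level of expression, from 20.8% in the lowest of 4 equal groups of the tested genes to 53.0% in the highest. It also varied with the length of the gene on the chromosome. In the longest of 4 equal groups by length 15.0% were called higher and 32.5% lower at 7 days, and in the shortest 17.6% and 13.1%. By chromosome the share called ran from 30.0 to 41.0%. On the X chromosome 167 of 521 tested genes were called (32.1%).

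Region markers were among the large differences. The cerebellar and hindbrain lists made up 89 of the 14300 genes tested. They held 53 of the 350 genes at least 2-fold higher at 7 days (15.1%) and none of the 175 at least 2-fold lower. The forebrain lists (130 tested) held 5 and 18 of these, and the choroid plexus and ependyma lists (43 tested) none and 8. Some cerebellar and hindbrain members passed the filter only through the libraries where they were high. The lists were also chosen with earlier results known, so these counts are a description and not support for a direction.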
